A study of Homo sapiens with 4 samples.

Results

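Circular RNAs were examined for 10 human genes that encode condensin subunits, the SMC5/6 pair and SMCHD1. The genes were SMC2, SMC4, NCAPD2, NCAPD3, NCAPG, NCAPG2, NCAPH, SMC5, SMC6 and SMCHD1. Every circle whose deposited annotation names any of these genes, and whose type is not antisense, was taken, which gave 799 of 211599 circles. The annotation names the gene by position, so a circle can name several genes. A further 18 antisense circles naming one of the genes were left out. The genes were chosen by their function around SMC4, whose summed circular counts differed between knockdown and control, so each difference between groups below is a description and supports no claim about the set.

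The cells were a radiation-resistant form of the breast cancer line MDA-MB-468, an established human line, and had received 50 Gy in total. The control group holds 2 libraries of resistant cells with a control hairpin (shCtrl), and the knockdown group holds 2 libraries with stable knockdown of HNRNPL, an RNA-binding splicing regulator. The labels name 1 hairpin (shHNRNPL-1), so an effect of HNRNPL and an effect of that hairpin cannot be told apart, and all 4 libraries carry the radiation history. The series describes the replicates as biological and asks which circles depend on HNRNPL. Circular RNA was copied with random primers by Induro reverse transcriptase, amplified with phi29 polymerase and read on a nanopore instrument. Circular reads of HNRNPL itself were not analysed here, and the knockdown rests on the labels.

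A circular RNA forms when the splicing machinery joins a 5′ splice site (the donor) to a 3′ splice site that lies upstream of it (the acceptor), a step called back-splicing. SMC proteins are long coiled-coil ATPases that work in pairs. SMC2 and SMC4 pair in condensin, which extrudes DNA loops and compacts mitotic chromosomes; NCAPH, NCAPD2 and NCAPG complete condensin I, and NCAPD3 and NCAPG2 belong to condensin II. SMC5 and SMC6 pair in the SMC5/6 complex, which acts in DNA repair and at stalled replication forks, and SMCHD1 is a non-canonical SMC protein required to keep the inactive X chromosome silent.

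The 4 libraries held 472428 and 556578 back-splice counts in the controls and 282737 and 390547 after knockdown. With 0 counts observed, as many as 3 remain possible, a limit of 0.635 and 0.539 per 100000 for the control libraries and of 1.06 and 0.768 for the knockdown libraries. These limits cover counting error only, since the reads carry no molecular identifiers. Control replicate 1 stood apart from the other libraries: intron circles made up 19.7% of its counts, against 10.6% in control replicate 2 and 9.93% and 10.0% after knockdown. The part of that library in each result was not tested beyond the values given for each library and the fits without it. Of the epithelial markers, EPCAM, CDH1 and EGFR had circular counts, summing to 34.5 and 18.7 per 100000 in the controls and 12.7 and 12.03 after knockdown, while KRT8 and KRT18 had none. EGFR held most of that difference, at 24.3 and 9.34 per 100000 in the controls and 4.24 and 5.38 after knockdown; CDH1 overlapped, and EPCAM had a fitted log2 fold change of -0.14. None of 5 markers of leukocytes, endothelium and fibroblasts (PTPRC, PECAM1, COL1A1, COL1A2 and PDGFRB) had a circular count, which does not speak to their linear RNA.

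Of the 799 circles, 726 had a count, 73 had none in any library, and 337 were seen in 1 library only. Exon circles numbered 667 and intron circles 132. The circles held 4311 counts, 0.253% of all counts. Only 81 reached 10 counts over the 4 libraries, only 8 reached 40, and 58 were seen in all 4 libraries. The summed level was 152 and 199 counts per 100000 in the controls and 355 and 379 after knockdown, so both knockdown libraries were above both controls. Intron circles gave 21.4% and 6.70% of these counts in the controls and 5.47% and 4.59% after knockdown. Linear RNA of the same genes was not analysed here, so a change in circle formation, in stability and in transcription of the host gene cannot be told apart. In these bulk libraries, more circles per cell and more cells that carry them cannot be told apart either.

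SMC4, SMC6, SMCHD1, SMC5 and NCAPG were higher in both knockdown libraries than in both controls. SMC2, NCAPD2, NCAPD3 and NCAPG2 were lower in both, and NCAPH overlapped. These levels are counts per 100000 of each library's total. Among all 8379 host genes with at least 10 counts, 15.3% were higher and 36.7% lower without overlap on this scale. In edgeR's quasi-likelihood test over all host genes, 37 of 8379 genes (0.442%) passed an adjusted p of 0.05, and SMC4 was the 1 member among them, which its choice fixes. DESeq2 called 185 host genes, among them SMC4, SMC6 and SMCHD1. The median log2 fold change was 0.85 over the 10 genes and -0.26 over all host genes after TMM normalisation, and -0.58 over all host genes when scaled by library totals alone. A gene's fitted log2 fold change therefore lies above the one its levels give.

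**Figure D1:**
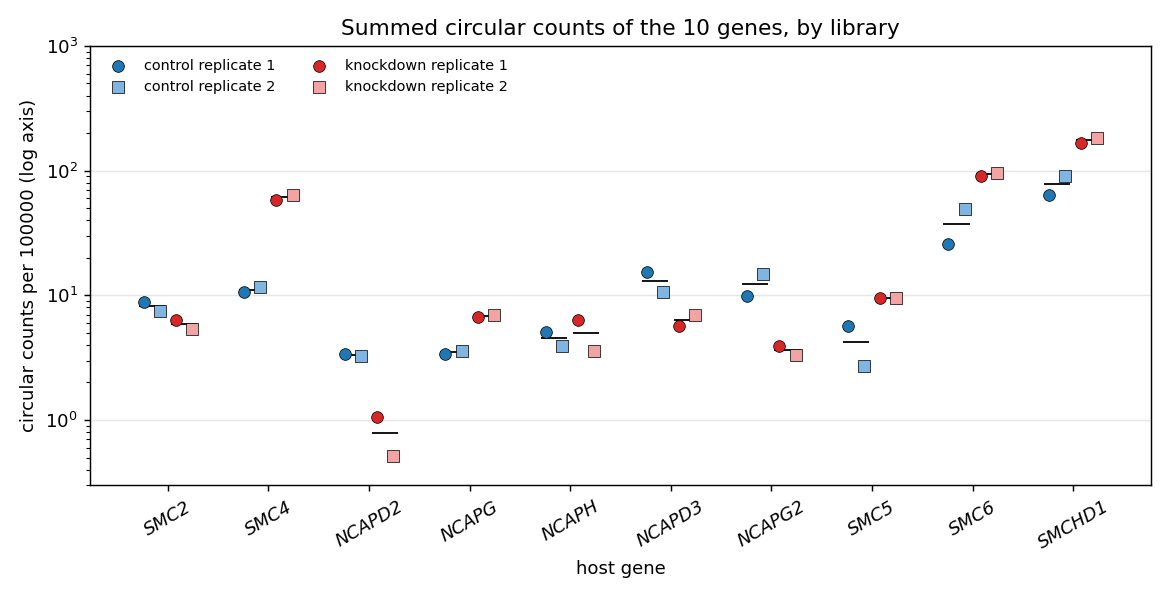
Summed circular counts per 100000 (log axis) of the 10 genes. Circles and squares are replicates 1 and 2, blue for control and red for HNRNPL knockdown, and each line is the mean of 2 libraries. SMC4 sits at 10.6 and 11.7 in the controls and at 58.0 and 63.8 after knockdown, while the NCAPD2, NCAPD3 and NCAPG2 points lie below their controls.

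**Figure D2:**
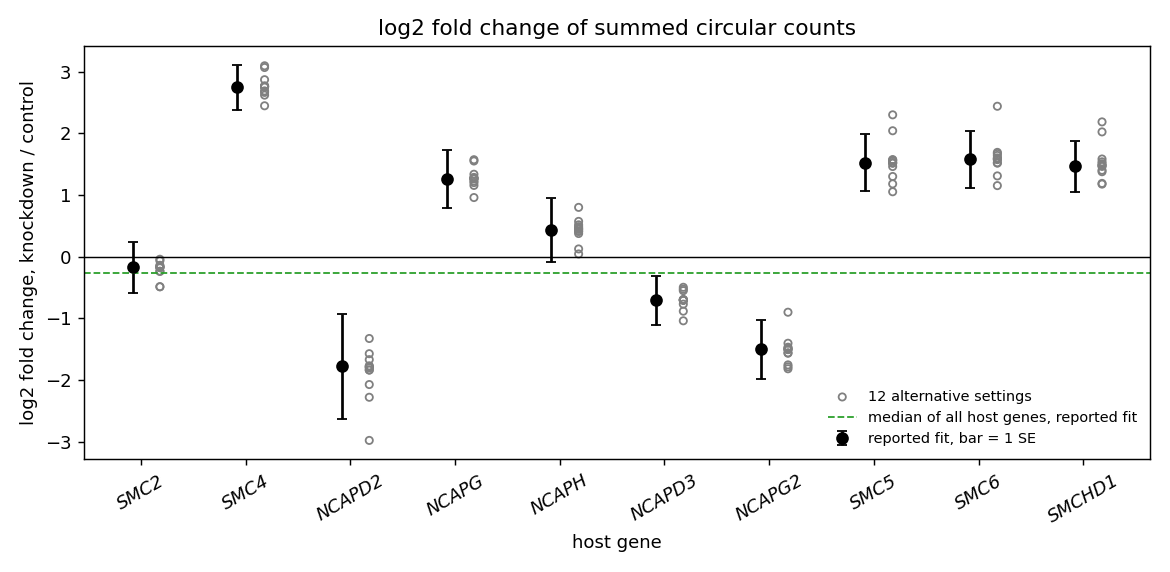
Log2 fold change of summed circular counts, knockdown over control, for each gene. Black points with 1 SE are the reported edgeR fit, open points are the 12 alternative settings, and the green line is the median of all host genes at -0.26. Each gene keeps its sign in all 12 settings.

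To set the genes side by side, levels were divided by the RefSeq gene span and given per 10 kb. The order of the genes depends on that divisor. In the controls the order ran from SMCHD1 (5.19 ± 1.26, SD, n = 2) over SMC6 (4.18 ± 1.88) and SMC4 (3.15 ± 0.22) to SMC5 (0.44 ± 0.22). SMCHD1 overlapped SMC6 and SMC6 overlapped SMC4, while SMC4 lay above the next gene, NCAPD3 (1.73 ± 0.46). After knockdown SMC4 stood first on this scale (17.2 ± 1.15), followed by SMCHD1 (11.7 ± 0.79) and SMC6 (10.4 ± 0.40). The libraries of these 3 genes did not overlap. Undivided, the order of the knockdown means was reversed, with SMCHD1 at 175, SMC6 at 93.5 and SMC4 at 60.9 per 100000. NCAPD2 was last at 0.21 ± 0.10 per 10 kb.

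SMC4, one of the ATPases of both condensins, is a gene of 35.3 kb on the plus strand of chromosome 3 (chr3:160399650-160434953, GRCh38.p14), and 99 circles named it. It had 50 and 65 circular counts in the controls and 164 and 249 after knockdown, a level of 11.1 ± 0.77 and 60.9 ± 4.07 per 100000 (SD, n = 2). The knockdown mean was 5.47 times the control mean, and the fitted log2 fold change was 2.75 ± 0.36 (SE). It was 2.87 without knockdown replicate 1 and 2.66 without knockdown replicate 2, and in both fits, where the lone library is assumed to vary like the controls, SMC4 no longer passed the threshold. Intron circles gave 20 and 7 of the control counts and 6 and 8 of the knockdown counts.

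A single acceptor held most of the added counts. Counts of exon circles that start at chr3:160413473, 13823 nt from the gene's start, were 8 and 15 in the controls and 106 and 156 after knockdown. Their share of SMC4 counts was 16% and 23.1% in the controls and 64.6% and 62.7% after knockdown. The other SMC4 circles were also higher, at 8.89 and 8.98 per 100000 in the controls and 20.5 and 23.8 after knockdown. This acceptor, like the sites singled out in the other genes below, was picked after its counts were seen.

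The most abundant SMC4 circle runs from this acceptor to the donor at chr3:160431825, a circle of 2317 nt and 14 exons (chr3:160413473-160431825). It had 5 and 8 counts in the controls and 70 and 86 after knockdown, 1.25 ± 0.27 and 23.4 ± 1.94 per 100000, with a fitted log2 fold change of 4.15 ± 0.41. Circles that share its acceptor but end elsewhere had 3 and 7 counts in the controls and 36 and 70 after knockdown. Circles that share only its donor had 2 and 1 counts in the controls and 5 and 7 after knockdown. Exon circles with neither site had 20 and 42 counts in the controls and 47 and 78 after knockdown, a ratio of levels of 3.11. All 4 kinds of exon circle were higher in both knockdown libraries, and those using the acceptor showed the larger ratios. The acceptor was taken as the most used by total count, and most of its counts came from the knockdown libraries. The larger ratios of its circles follow in part from that choice.

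The second SMC4 circle is a single block of 1045 nt (chr3:160413473-160414517) with 1 and 3 control counts and 10 and 27 knockdown counts. It keeps a 753 nt interval (chr3:160413614-160414366) that 30 other SMC4 circles splice out as an intron, so part of what the others drop stays in this circle. The third circle, of 1345 nt and 8 exons, had 1 and 2 control counts and 13 and 22 knockdown counts. The fourth (chr3:160420740-160428942, 938 nt, 6 exons) starts at another acceptor. It had 2 and 11 control counts and 9 and 8 knockdown counts, with a fitted log2 fold change of 1.08 ± 0.79. The fifth, of 1630 nt and 4 exons, had no count in either control and 6 and 8 after knockdown. That is at least 3.55-fold higher against the limit of 3 counts in each control library. This circle reached 10 counts only through the knockdown libraries, so nothing is read from its direction. An intron circle of 2904 nt had 11 counts in control replicate 1 and 0 in each other library.

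**Figure D3:**
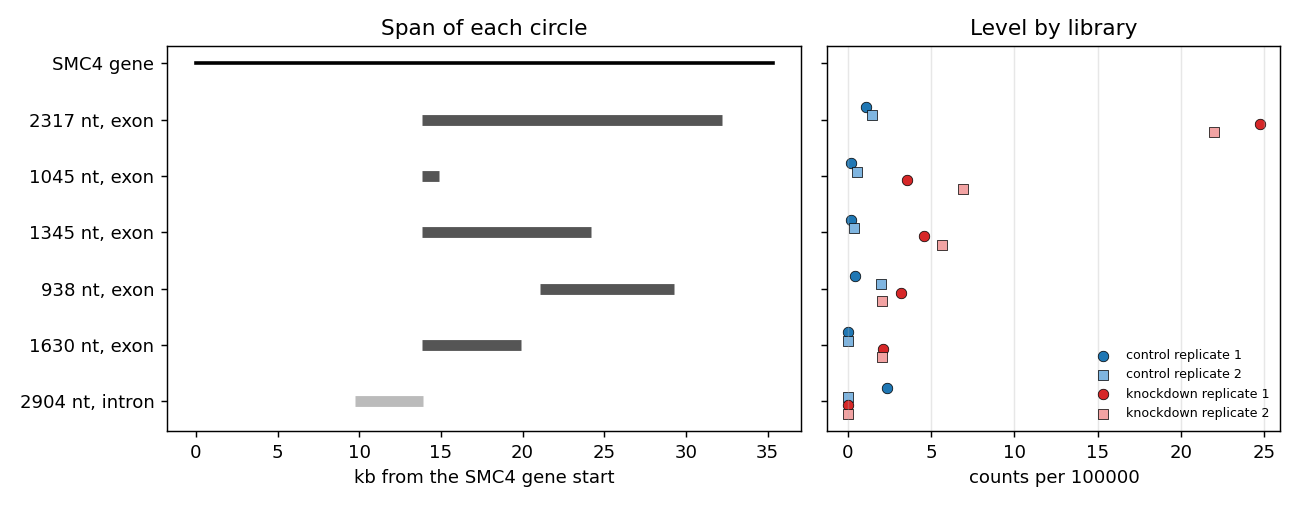
The 6 SMC4 circles with at least 10 counts. The left panel draws each circle's span in kb from the gene's start, dark for exon circles and light for the intron circle, and the right panel gives its counts per 100000 in each library. Of the 6 spans, 4 begin at the same acceptor, and the 2317 nt circle reaches 24.8 and 22.0 per 100000 after knockdown against 1.06 and 1.44 in the controls.

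Circles in which every listed isoform keeps an intron that at least 2 circles of the gene remove held 60 of 487 SMC4 exon-circle counts (12.3%). By library the SMC4 share was 30% and 15.5% in the controls and 7.59% and 12.4% after knockdown. Pooled over libraries, the share was at most 2.35% in the other 9 genes, but SMC5 reached 18.2% in control replicate 2, from 2 counts. The 1045 nt circle supplied 41 of the 60 counts. The other 6 such SMC4 circles had 8 and 6 counts in the controls and 2 and 3 after knockdown. The 1045 nt circle had 1 and 3 in the controls and 10 and 27 after knockdown.

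The introns of SMC4 hold the MIR15B and MIR16-2 genes, whose microRNAs are known as repressors of BCL2 and of cell cycle genes. Their mature strands are shown because circles of SMC4 span both hairpins. The 5p strands share the seed, bases 2 to 8, in capitals (RefSeq, GRCh38.p14).
hsa-miR-15b-5p: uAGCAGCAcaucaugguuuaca
hsa-miR-16-5p: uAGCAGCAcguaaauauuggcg
hsa-miR-15b-3p: cGAAUCAUuauuugcugcucua
hsa-miR-16-2-3p: cCAAUAUUacugugcugcuuua
The MIR15B hairpin lies at chr3:160404588-160404685 and the MIR16-2 hairpin at chr3:160404745-160404825, both on the plus strand and upstream of the acceptor described above. Circles naming either gene numbered 18 and held 43 counts, 4 and 6 in the controls and 15 and 18 after knockdown. Their share of SMC4 counts was 8.00% and 9.23% in the controls and 9.15% and 7.23% after knockdown, so the share overlapped while the level was higher. In none of these circles did a listed block contain a whole hairpin.

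SMC2, the partner of SMC4 in both condensins, had 42 and 42 counts in the controls and 18 and 21 after knockdown. The levels were 8.89 and 7.55 per 100000 in the controls and 6.37 and 5.38 after knockdown, and the fitted log2 fold change was -0.17 ± 0.42. The groups did not overlap on the scale of library totals, but the fitted difference was smaller than its SE. Its most abundant circle (chr9:104099644-104139163, 3001 nt, 21 exons) had 4 and 22 counts in the controls and 3 and 3 after knockdown, so control replicate 2 alone held most of them. The 2 ATPases that form one pair thus lay apart, SMC4 with a log2 fold change of 2.75 and SMC2 near 0. The difference between them was not tested.

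The condensin I subunits were measured at few counts. NCAPG, a HEAT-repeat subunit, had 16 and 20 counts in the controls and 19 and 27 after knockdown, 3.49 ± 0.15 and 6.82 ± 0.14 per 100000, with a log2 fold change of 1.26 ± 0.47. In control replicate 1, 12 of its 16 counts came from intron circles, 10 of them from 1 circle of 3317 nt that had 0 counts in each other library. NCAPD2, the other HEAT-repeat subunit, had 16 and 18 counts in the controls and 3 and 2 after knockdown. The knockdown counts lay at or below the limit that 3 counts set, and the fitted log2 fold change was -1.78 ± 0.85. Of its 9 circles, 4 name several genes, and without them it was -2.98. Its most abundant circle (chr12:6521798-6523346, 500 nt) went from 6 and 11 counts to 0 and 2. NCAPH, the kleisin that closes the ring, had 24 and 22 counts in the controls and 18 and 14 after knockdown, and its levels overlapped at 5.08 and 3.95 against 6.37 and 3.58 per 100000. Its leading circle of 790 nt had 5 and 10 control counts and 6 and 4 knockdown counts.

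Both condensin II subunits had lower levels in both knockdown libraries, as 36.7% of all host genes did, and neither passed the edgeR test. NCAPD3 had 73 and 59 counts in the controls and 16 and 27 after knockdown, 13.03 ± 3.43 and 6.29 ± 0.89 per 100000, with a log2 fold change of -0.71 ± 0.40. Intron circles gave 23 of the 73 counts in control replicate 1, and its leading exon circle of 634 nt overlapped between groups at 6 and 10 against 4 and 9 counts. NCAPG2 had 47 and 83 counts in the controls and 11 and 13 after knockdown, 12.4 ± 3.51 and 3.61 ± 0.40 per 100000, with a log2 fold change of -1.5 ± 0.48, which was -0.90 without control replicate 2. Its most abundant circle (chr7:158664184-158693497, 1643 nt, 12 exons) had 15 counts in control replicate 2 and 0 in the other 3 libraries. The second (609 nt) had 2 and 10 control counts and 1 and 0 knockdown counts, so the gene was lower as a sum over circles that each held few counts.

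SMC5 and SMC6 had higher levels in both knockdown libraries, as 15.3% of all host genes did, and neither passed the edgeR test. In both genes 1 splice site held most knockdown counts. SMC6, on the minus strand of chromosome 2, had 121 and 276 counts in the controls and 257 and 375 after knockdown, 37.6 ± 16.95 and 93.5 ± 3.62 per 100000, with a log2 fold change of 1.58 ± 0.46. Leaving out control replicate 1 gave 1.15, and leaving out control replicate 2 gave 2.44. The controls differed from each other by more than the knockdown libraries did. Of its counts, 71.1% and 81.5% in the controls and 88.7% and 83.2% after knockdown came from exon circles with the acceptor at chr2:17745951, 7859 nt from the gene's start. The most abundant one (chr2:17665503-17745951, 3277 nt, 26 exons) spans most of the gene. It had 49 and 114 counts in the controls and 140 and 196 after knockdown, which was 40.5% and 41.3% of SMC6 counts in the controls and 54.5% and 52.3% after knockdown. Of the 12 SMC6 circles with at least 10 counts, 8 were higher without overlap and 4 overlapped, where 23.2% of all circles tested were higher.

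SMC5 had 27 and 15 counts in the controls and 27 and 37 after knockdown, 4.21 ± 2.14 and 9.51 ± 0.05 per 100000, with a log2 fold change of 1.52 ± 0.46. It was 2.30 over exon circles only, 1.05 over circles naming 1 gene and 2.04 without control replicate 1. Exon circles that end at the donor chr9:70324143 had 0 and 3 counts in the controls and 17 and 28 after knockdown, or 0% and 20% of SMC5 counts against 63.0% and 75.7%. The remaining SMC5 circles had 27 and 12 counts in the controls and 10 and 9 after knockdown, and their levels overlapped. In control replicate 1, 15 of the 27 counts were from intron circles. The leading circle (chr9:70305247-70324143, 937 nt, 7 exons) had 0 and 1 control counts and 9 and 10 knockdown counts. To the same donor, 2 further circles had 0 and 1 control counts each, against 4 and 9 and against 4 and 7 after knockdown. These SMC5 circles reached 10 counts only through the knockdown libraries, so nothing is read from their direction.

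**Figure D4:**
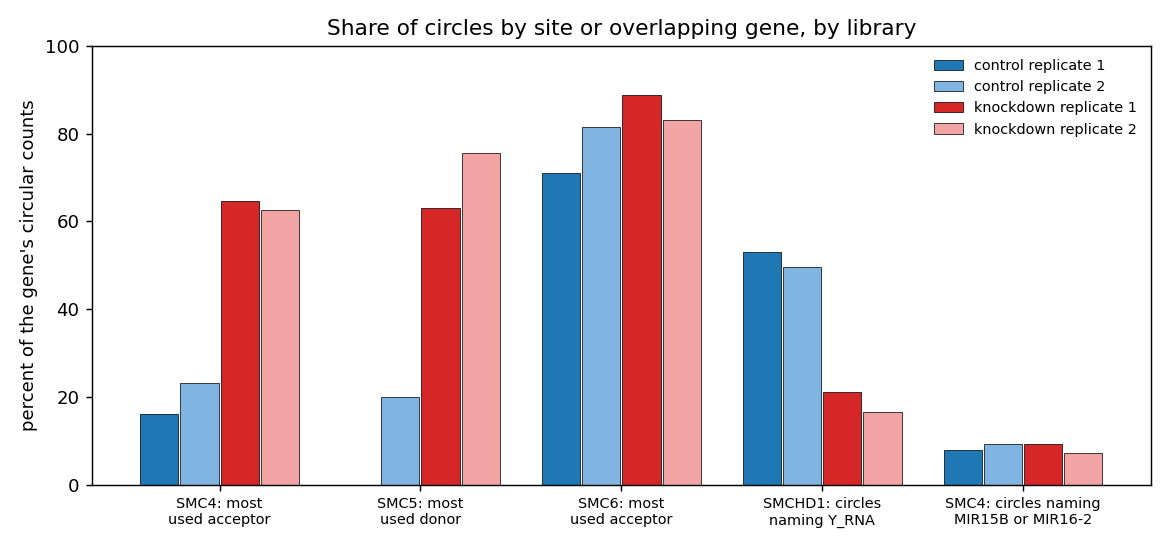
Percent of a gene's circular counts, by library, in circles using the site or overlapping the gene named under each group of bars. The bars for the SMC4 acceptor go from 16% and 23.1% to 64.6% and 62.7%, those for the SMC5 donor from 0% and 20% to 63.0% and 75.7%, and those for SMCHD1 circles naming Y_RNA from 53.1% and 49.5% to 21.2% and 16.6%.

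SMCHD1 gave 408 of the 799 circles and 1997 of the 4311 counts, from a gene of 149 kb on the plus strand of chromosome 18. It had 303 and 505 counts in the controls and 472 and 717 after knockdown, 77.4 ± 18.8 and 175 ± 11.8 per 100000, with a log2 fold change of 1.46 ± 0.42. It was 2.19 over circles naming 1 gene, which leaves out those naming Y_RNA, and 1.19 and 2.02 without control replicate 1 and 2. No circle dominated: the most abundant held 1.65% and 1.98% of SMCHD1 counts in the controls and 4.66% and 4.32% after knockdown. That circle (chr18:2688394-2707920, 1622 nt, 12 exons) had 5 and 10 counts in the controls and 22 and 31 after knockdown. A circle of equal total (chr18:2724899-2752552, 1743 nt, 14 exons) had 1 and 7 control counts and 23 and 37 knockdown counts, with a log2 fold change of 3.49 ± 0.65. Both differed at least 4-fold between group means without overlap, as 12.2% of all circles with at least 40 counts did in this direction.

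Its circles differed by where they end. The 211 exon circles whose donor lies before chr18:2775734, with no filter on counts, had 55 and 129 counts in the controls and 309 and 521 after knockdown. Their level was 17.4 ± 8.16 per 100000 in the controls and 121 ± 17.1 after knockdown, a ratio of 6.97. The 147 exon circles whose donor lies at or beyond that position had 200 and 341 counts in the controls and 139 and 166 after knockdown, and their levels overlapped, with a ratio of 0.885. Of the 31 donors with at least 10 counts, 22 lie before the position, and 20 of these were higher after knockdown, 1 was lower and 1 overlapped. Of the 9 beyond it, 1 was higher, 1 lower and 7 overlapped. Among all 14485 back-splice donors with at least 10 counts, 23.9% were higher and 26.1% lower without overlap. Donors of few control counts enter this set through the knockdown libraries, so nothing is read from these counts. At the donor chr18:2752552 the counts were 6 and 13 in the controls and 59 and 112 after knockdown.

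That position is the start of an interval taken from the annotation, and it was picked after the counts were seen. Every SMCHD1 circle that also names Y_RNA, a small noncoding RNA family with many copies, covers chr18:2775734-2779968. Circles without that name were looked at only if they end at or before chr18:2779968. Of those that start before the interval, the furthest end was chr18:2778239. Whether circles without the name run past the interval was not tested. The split by donor is therefore not the split by name. The 106 circles naming it had 161 and 250 counts in the controls and 100 and 119 after knockdown, a share of 53.1% and 49.5% of SMCHD1 counts against 21.2% and 16.6%. Their levels overlapped at 34.1 and 44.9 against 35.4 and 30.5 per 100000. All other SMCHD1 circles, intron circles included, had 142 and 255 counts in the controls and 372 and 598 after knockdown, a ratio of levels of 3.75. Among all 21576 circles tested, 23.2% were higher and 22.9% lower without overlap. Of the 17 circles naming Y_RNA with at least 10 counts, 4 were higher, 2 lower and 11 overlapped. The lower ones were chr18:2728457-2784621 (2946 nt), with 9 and 23 control counts and 2 and 4 knockdown counts, and chr18:2775734-2784621 (544 nt), with 6 and 7 control counts and 1 and 0 knockdown counts.

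**Figure D5:**
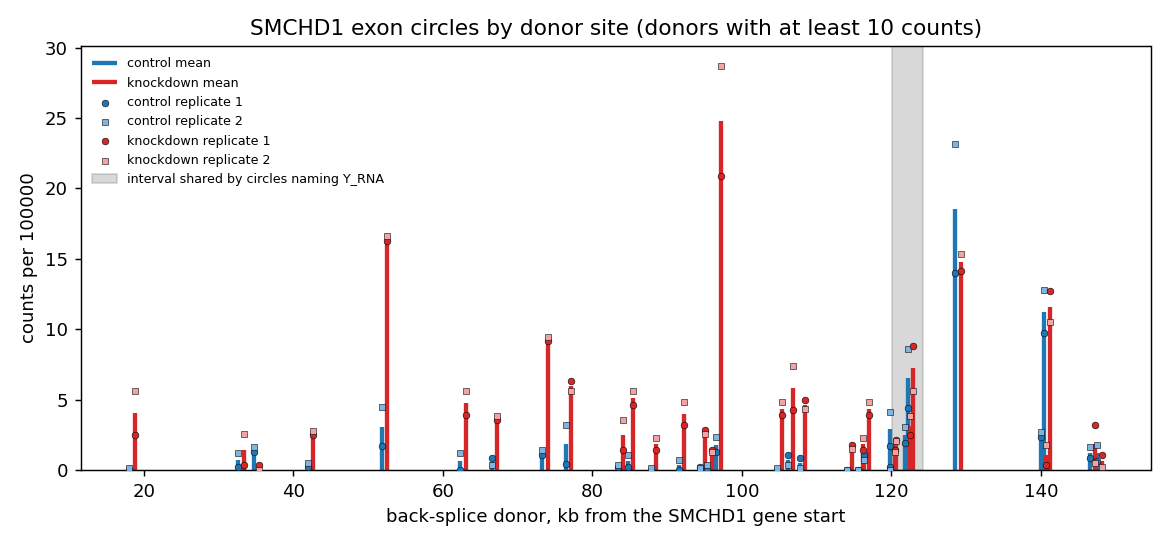
Counts per 100000 of SMCHD1 exon circles at each donor with at least 10 counts, against the donor's distance in kb from the gene's start. Lines are group means, blue for control and red for knockdown, points are libraries, and the grey band is the interval that all circles naming Y_RNA share. Red lines stand above blue at 20 of the 22 donors left of the band without overlap of the libraries, and at 1 of the 9 in or right of it.

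Over all 10 genes, 81 circles entered the circle test, and 41 were higher, 6 lower and 34 overlapped. The higher ones were 25 of 49 for SMCHD1, 8 of 12 for SMC6, 5 of 6 for SMC4 and 3 of 3 for SMC5. No tested circle of the other genes was higher without overlap. Circles of the same gene can share splice sites and are not independent, so nothing is read from these counts about the set. The shares among all 21576 circles tested were 23.2% higher and 22.9% lower. In edgeR's quasi-likelihood test 0 of 21576 circles (0%), and so 0 of the 81, passed an adjusted p of 0.05. At an unadjusted p of 0.05, 2925 of all circles and 23 of the 81 passed, of which 22 were higher. DESeq2 called 1052 of all circles and 14 of the 81. A test of unequal change among the circles of a gene called 92 of 2327 genes (3.95%). It could be run for 6 of the 10 genes, and SMCHD1 alone passed it. SMC4, whose 6 circles entered that test, did not. Circles naming several genes were left out of it, so SMCHD1 entered with 32 circles, none of them naming Y_RNA. SMC5 had too few circles left to enter. Without knockdown replicate 1 or 2, none of the 5 genes tested passed, where 2 of 2141 and 1 of 2061 genes did. Without control replicate 1 SMC4 and SMCHD1 passed, where 891 of 1823 genes did. Without control replicate 2 NCAPD3 passed as well, where 913 of 1810 genes did.

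Other genes of the same pathways were summed the same way, from lists chosen for their function with earlier results of these data known. Of 9 other subunits and partners of condensin, SMC5/6 and SMCHD1, 6 had circular counts and 5 were tested by edgeR. None of the 5 passed, 1 (SLF1) had an unadjusted p under 0.05, and DESeq2 called 0. Their median log2 fold change was 0.25. SLF1, which with SLF2 brings SMC5/6 to damaged forks, had 51 and 162 counts in the controls and 117 and 200 after knockdown, while SLF2 overlapped between groups. LRIF1, a partner of SMCHD1, had 88 and 111 control counts and 61 and 88 knockdown counts, which per 100000 was 19.3 ± 0.93 and 22.1 ± 0.68. NSMCE2, the SUMO ligase of SMC5/6, was lower without overlap on the scale of library totals, and its fitted log2 fold change was 0.11 ± 0.34, so its direction turned with the scaling.

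The other SMC ring, cohesin, had circular counts for all 9 of its genes and regulators tested. None passed the edgeR test, 4 had an unadjusted p under 0.05, and DESeq2 called PDS5A and PDS5B. At that unadjusted p, 1154 of all 8379 host genes passed. The median log2 fold change was 0.78, and 5 genes were higher without overlap, 1 was lower and 3 overlapped, against the 15.3% higher and 36.7% lower among all host genes. PDS5B, a cohesin regulator, had 78 and 139 counts in the controls and 231 and 317 after knockdown, and its paralog PDS5A had 165 and 481 against 573 and 906. SMC1A, a cohesin ATPase, had 37 and 6 control counts and 1 count in each knockdown library. Among 6 mitotic chromosome factors, 4 were tested and none passed by edgeR or by DESeq2, nor did any at an unadjusted p of 0.05. CDK1, the mitotic kinase, was the 1 higher without overlap, with 4 and 5 counts in the controls and 6 and 6 after knockdown. KIF4A, a chromosome-bound kinesin, was the 1 lower without overlap, with 132 and 157 counts in the controls and 51 and 44 after knockdown.

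The host genes whose pattern over the 4 libraries was most like that of SMC4 were SNX14, DTWD1 and CUL5. Likeness was the Euclidean distance between log2 counts per 100000, each gene centred on its own mean, against 4763 other genes with at least 40 counts. The distances were 0.19, 0.22 and 0.25. SNX14 had 140 and 157 counts in the controls and 401 and 586 after knockdown. Of the 8 other genes of the set with at least 40 counts, SMC6 was nearest to SMC4, at rank 205, and SMCHD1 followed at rank 230.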

How the data were processed

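The deposited raw count table gave 1 line per back-splice circle and 1 column of counts per library. Per the submitters' processing notes the build was GRCh38.p14 and DESeq2 was used; the circle caller, aligner and filters are not given in the sources used here. A second deposited table, labelled CPM, was not used. A sum of counts cannot tell molecules from amplified copies.

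The 10 genes, the lists and the sites named were chosen with earlier results of these data known. Counts were summed to every gene a circle names, antisense circles left out, and every gene or circle whose 4 libraries summed to 10 counts or more was tested with edgeR 4.0.16 (R 4.3.3): TMM, quasi-likelihood fit, Benjamini-Hochberg adjustment over the whole table, threshold 0.05. SE is the log2 fold change divided by the root of F. Circle use was tested with diffSpliceDGE over circles naming 1 gene. DESeq2 1.42.0 was an alternative. The edgeR fit of host genes was tried on simulated counts with known changes and the same spread in both groups. The unequal spread of the control and knockdown pairs was not simulated, and the other tests were not tried this way.

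All 10 genes were named. Of their circles, the rule named the most abundant of each gene, the 3 most abundant of SMC4, any past an adjusted p of 0.05, and those with 40 or more counts, no overlap and a 4-fold difference. Other circles, sites and splits were picked after their values were seen. A likeness pseudocount of 0.5 counts was used. Circle length in nt is the deposited value.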

Additional observations from a re-analysis of the deposited data

How the results depend on the processing

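All 10 genes kept the sign of their log2 fold change in all 12 alternatives, and SMC4 passed the host gene test in 9 of the 12, with log2 fold changes of 2.45 to 3.10. It did not pass with the newer dispersion method of edgeR (2.75) or without either knockdown library. The number of the 10 genes past the threshold was 1 in the reported fit, 3 with DESeq2, 2 with no filter, 0 with the newer dispersion method and 2 with the replicate block, and 0 to 6 when 1 library was left out. Over all host genes the reported fit called 37, library-size scaling 55, DESeq2 185, no filter 369, a filter of 5 counts in 2 libraries 116, circles naming 1 gene 88, exon circles only 81, the replicate block 300 and the newer dispersion method 0, although 1266 genes had an unadjusted p under 0.05 there. Without control replicate 1 it was 1672, without control replicate 2 2775, and without either knockdown library 0 (352 and 282 at an unadjusted p under 0.05). edgeR's biological coefficient of variation was 0.646 within the control pair and 0.0961 within the knockdown pair.

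Of the 81 circles tested, 0 passed in the reported fit, 14 with DESeq2, 3 of 726 with no filter, 6 of 8 with at least 40 counts, 16 with the replicate block, and 0 to 31 when 1 library was left out. Over all circles the calls were 0 of 21576 in the reported fit, 1052 with DESeq2, 471 of 190152 with no filter, 562 of 4944 with at least 40 counts, 1620 with the replicate block, 4485 of 15896 and 6421 of 14791 without control replicate 1 and 2, and 0 without either knockdown library (900 and 860 at an unadjusted p under 0.05). In the test of circle use, 1 gene (SMCHD1) passed in the reported fit, 0 with at least 40 counts, 0 with the Simes method, 2 (SMC4 and SMCHD1) with the replicate block, and 0 to 3 when 1 library was left out. Over all genes it called 92 of 2327, 135 of 784, 53 and 535 in the same order, and 1 to 913 when 1 library was left out. Chosen after seeing the data, a filter of 10 counts per SMCHD1 donor gave a ratio of levels of 7.19 before chr18:2775734 and 0.935 beyond it, where no filter gave 6.97 and 0.885. The replicate numbers are shared between groups only as numbers: deviations of the libraries numbered 1 correlated at 0.0806 over 4944 circles, and no label says that equal numbers share a culture.

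Depth limits the genes of few counts most. NCAPD2 after knockdown and the leading circles of NCAPG and NCAPG2 rest on counts at or near the limit of 3, or on 1 library.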
